A study of Zea mays with 6 samples.

Results

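The genes described here are 72 transcripts of maize endosperm that were well expressed in the wild type and fell at least 2.5-fold in *zmnac128 zmnac130*. Expression was measured as FPKM, the fragments of a gene relative to its length and to the size of the library. A gene was a member when its mean over the 2 wild-type libraries was at least 50 and below 500 FPKM, when the smaller wild-type value was at least 2.5 times the larger mutant value, and when at least 1 mutant library was above 0. Of the 44303 genes in the tables, 75 met these conditions. Left out by name were a probable alpha-glucosidase, basal endosperm transfer layer 3 and the aquaporin TIP3-1, and also hexokinase1, which the rule names as well although its smallest ratio of 2.42 lies below the limit. The members were thus chosen on the genotype difference itself, so their fall is described without a test.

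The endosperm, the storage tissue of the kernel, was collected at 16 DAP (days after pollination) from the wild type and from *zmnac128 zmnac130*, both F2 offspring of B73 and KN5585. The mutant carries lesions in the duplicate NAC transcription factor genes *ZmNAC128* and *ZmNAC130*, made in the inbred KN5585 and crossed to B73, and the wild-type endosperms were genotyped segregants of the same cross. RNA of more than 3 endosperms went into an extraction, so a library is a pool. Of 3 samples labelled per genotype, the one numbered 3 equalled the one numbered 1 in every gene and was counted with it as 1 sample, which leaves 2 libraries per genotype. A plant that is mutant at both loci also carries KN5585 alleles around them, and a parental difference near those loci cannot be told apart from the loss of the 2 factors. No source used here links *ZmNAC128* and *ZmNAC130* to gene IDs, and the genotype labels were not checked on those transcripts. In bulk tissue, fewer cells of a type and less RNA per cell cannot be told apart.

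NAC proteins are a plant-specific family of DNA-binding regulators, many of which act in storage organs, in senescence and under water stress. A filling endosperm turns imported sugars and amino acids into starch and zeins, the prolamin storage proteins of maize. Beside these very abundant storage transcripts it expresses a broad middle layer of genes expressed at lower levels, and the members belong to this layer by their level. What most of them do is not known from the sources used here. The tissue label was checked on the 7 genes described as zeins, which held 9.26% and 9.28% of all FPKM in the wild-type libraries. In the *zmnac128 zmnac130* libraries they held 3.56% and 2.59%, and limma called each of the 7 lower. Only hdEGs, genes the study had selected as changed in sets that include these libraries, carry descriptions, so these 7 were preselected and do not stand for all zeins. Of the other fixed markers only basal endosperm transfer layer 3 could be matched by its description. This gene of the layer that takes up nutrients from the mother plant stood at 135 and 162 FPKM in the wild type. In the mutant it stood at 44.4 and 29.5 FPKM. The study gives a gene ID for *ZmSWEET4c*, another marker of this layer, but its levels were not looked up here. Aleurone, embryo and maternal markers could not be matched by name, and the part of a change in cell types in the members' fall was not tested.

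A fall of this size was found in 5.10% of the genes of the same wild-type level. Between 50 and 500 FPKM lay 1511 genes, and in 77 of them every wild-type library was at least 2.5 times every mutant library. These are the 72 members, the 3 genes left out by name and 2 genes next to each other in ID order, Zm00001eb040620 and Zm00001eb040630. Both of the latter lay between 57.1 and 63.2 FPKM in each wild-type library but at 0 in both mutant libraries, and they were singled out after their values had been seen. In the opposite direction, 16 of the 1511 genes (1.06%) rose by the same criterion. Choosing by wild-type level favours falls, because a gene that rises from a low level lies outside the window. Where the window was set on the mutant mean instead, 75 of 1640 genes (4.57%) rose. Among genes of 10 to 50 FPKM in the wild type, 3.98% fell by the criterion, among those of 1 to 10 FPKM 8.89%, and among the 74 genes of at least 500 FPKM 13.5%. In the limma fit across all 19082 genes tested, 7.18% were called lower and 6.43% higher, and the 72 members were all among the lower calls, which the rule makes nearly certain.

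**Figure D1:**
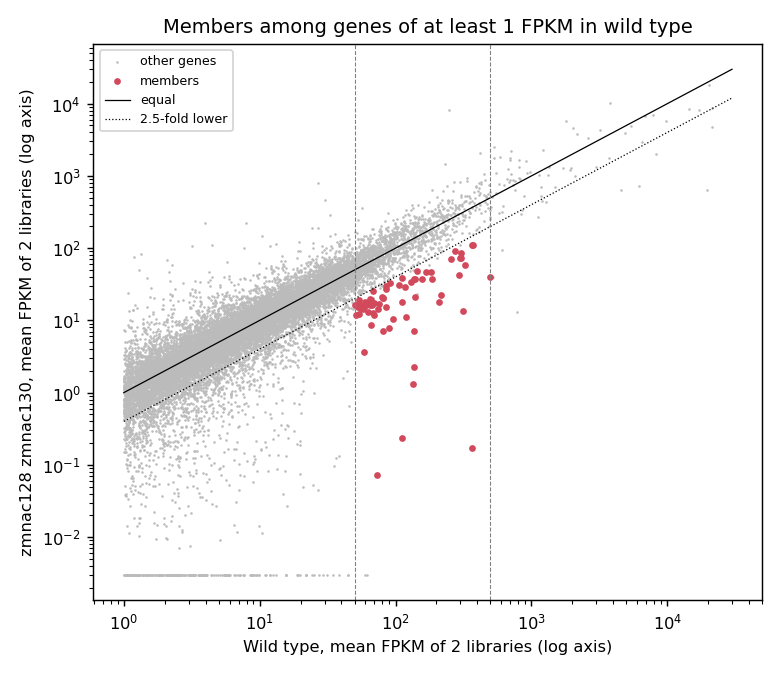
Mean FPKM of the 2 *zmnac128 zmnac130* libraries against mean FPKM of the 2 wild-type libraries, both on log axes, for genes of at least 1 FPKM in the wild type, with the 72 members in red. Dashed lines mark 50 and 500 FPKM, the solid line equal levels and the dotted line a 2.5-fold fall, and genes at 0 in the mutant are drawn at 0.003. Most members lie close below the dotted line, and 3 lie below 1 FPKM in the mutant.

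Together the members made up 1.51% and 1.60% of all FPKM in the wild-type libraries and 0.332% in each of the mutant libraries. Their summed level was 9373 and 9757 FPKM in the wild type and 1921 and 1951 FPKM in *zmnac128 zmnac130*. The mean wild-type level of a member ranged from 50.01 to 498 FPKM, with a median of 85.3, and the mean mutant level from 0.0724 to 112 FPKM, with a median of 17.6. The median ratio of wild-type to mutant mean was 3.97, and the median share of the wild-type level kept by a member was 25.2%. The quartiles of the ratio were 3.48 and 6.27. The rule admits no gene with a ratio below its limit, so the distribution is cut off from below. The median and the lower quartile therefore depend on where that limit was set, and do not show a fall of uniform size. In 48 members the ratio was below 5, in 11 between 5 and 10, and in 13 at least 10. By level, 40 members lay between 50 and 100 FPKM, 18 between 100 and 200 and 14 between 200 and 500, and their median ratios were 3.89, 4.13 and 4.91. These counts were 4.42%, 4.59% and 6.54% of all genes in the same ranges. Across the 72 members, Spearman's rho of wild-type level and ratio was 0.28, a description over genes that share their libraries.

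**Figure D2:**
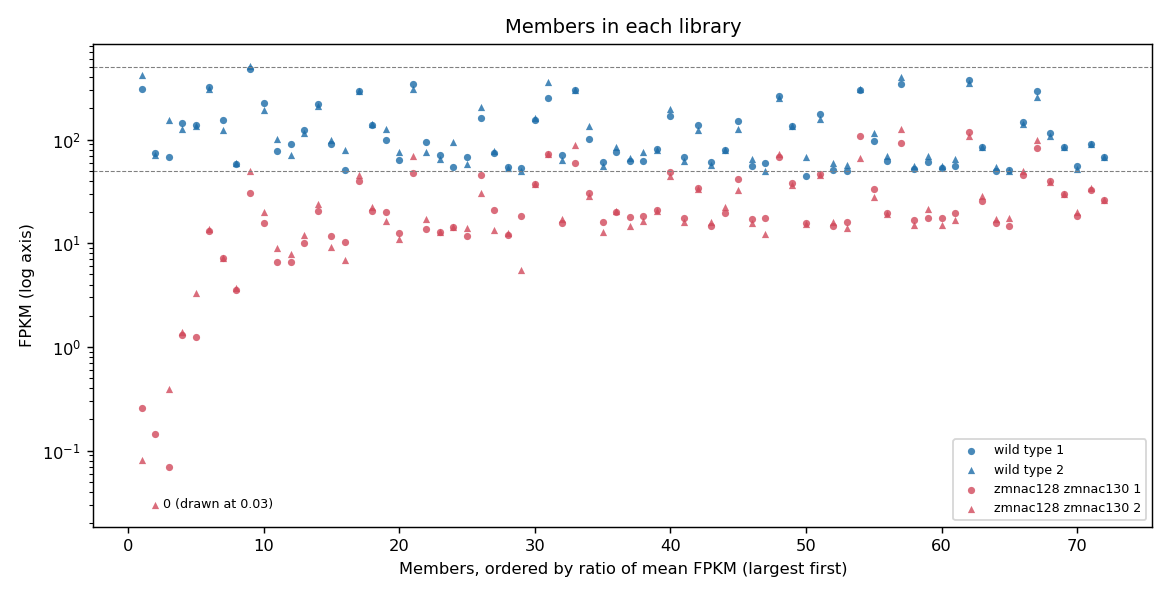
FPKM on a log axis of each of the 72 members in the 2 wild-type libraries (blue) and the 2 *zmnac128 zmnac130* libraries (red), ordered by the ratio of mean FPKM from the largest to the smallest. Circles are replicate 1, triangles replicate 2, dashed lines mark 50 and 500 FPKM, and the single value of 0 is drawn at 0.03. The largest falls stand at the left. By this ordering the gap between the genotypes narrows to the right, from a ratio of 11.7 at rank 10 to 2.63 at rank 72.

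Descriptions were at hand only for the 22 members that are among the 243 hdEGs, the genes the study selected as changed in each of its transcriptome sets. This selection included the libraries used here, so it is not independent evidence of a direction. In 9 of the 22 the description names a protein, and 13 are uncharacterized or carry no description. Of all 113 downregulated hdEGs, 38 had a wild-type mean of 50 to 500 FPKM. Beside the 22 members these are the 4 genes named in the rule and 12 genes whose smallest ratio, 1.98 to 2.42, missed the limit. Gene places are those of RefSeq for Zm-B73-REFERENCE-NAM-5.0, which were found for 17 members.

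Among the described members, 3 belong to stress and desiccation proteins. Zm00001eb084480 (chromosome 2, 62468073 to 62469696) is described as a desiccation-related protein of the kind known from the resurrection plant *Craterostigma plantagineum*, where it accumulates as tissue dries. Its wild-type libraries stood at 91.2 and 70.6 FPKM and its mutant libraries at 6.60 and 7.83 FPKM. The ratio of means was 11.2. Zm00001eb345750 (chromosome 8, 81956491 to 81958858) encodes a lactoylglutathione lyase, the first enzyme of the pathway that detoxifies methylglyoxal, a by-product of glycolysis. Its level was 138 and 142 FPKM in the wild type and 20.3 and 22.3 FPKM in the mutant. The libraries of a genotype lay close together, and the ratio was 6.58. Zm00001eb013910, described as senescence associated gene 20, stood at 156 and 160 FPKM in the wild type and at 37.2 and 37.0 FPKM in *zmnac128 zmnac130*, a ratio of 4.25. The other 9 hdEGs of this group did not share 1 direction. By limma 3 were called lower and 5 higher, and 1 was not called, beside 85 lower and 123 higher among all 221 hdEGs that are not members. The largest changes among them were an ultraviolet-B-repressible protein (Zm00001eb330460, -2.59 ± 0.19 in log2 fold change and standard error, adjusted p = 0.0002961 in limma), cold shock protein-1 (Zm00001eb032860, -2.48) and a low molecular weight heat shock protein (Zm00001eb193940, 1.64). These values and those below are on the scale of log2(FPKM + 1), mutant minus wild type.

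A pair of members belongs to lipid and sterol metabolism. Zm00001eb253760 (chromosome 5, 213387126 to 213389201) is described as caleosin related, caleosins being calcium-binding proteins in the surface of lipid droplets. It was expressed at 56.1 and 64.5 FPKM in the wild type and at 17.0 and 15.6 FPKM in the mutant, a ratio of 3.71. Zm00001eb392940 (chromosome 9, 128422589 to 128427911) encodes a 3beta-hydroxysteroid-dehydrogenase/decarboxylase, which acts in the removal of methyl groups during plant sterol synthesis. Its wild-type values were 74.8 and 76.8 FPKM and its mutant values 20.7 and 13.3 FPKM. Here the wild-type libraries agreed and the mutant libraries were further apart, with a ratio of means of 4.46. Another gene described as a 3-beta hydroxysteroid dehydrogenase, Zm00001eb084520, stood only 4 IDs from the desiccation-related member and was also called lower, from 35.6 ± 0.515 to 16.4 ± 0.403 FPKM (SD, n = 2). limma gave it a log2 fold change of -1.08 (adjusted p = 0.0004104). Of the 5 other hdEGs of the group, 2 were called lower and 3 higher. The highest rise was that of a dihydroceramide fatty acyl 2-hydroxylase (Zm00001eb032500), with a log2 fold change of 2.74. A probable protein S-acyltransferase (Zm00001eb148220, -2.29) and a phosphoethanolamine N-methyltransferase (Zm00001eb360800, 2.11) followed by size. Zm00001eb084520 changed less than these and was singled out after its values had been seen.

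In signalling and protein turnover, both members have to do with ubiquitin. Zm00001eb278070 (chromosome 6, 117591558 to 117594362), described as a putative ubiquitin-conjugating enzyme, belongs to the enzymes that hand ubiquitin on to target proteins. At 345 and 308 FPKM it was among the 5 members of highest wild-type level, and it fell to 47.4 and 69.4 FPKM, a ratio of 5.59. Zm00001eb288390 is described as F-box/LRR-repeat protein 2, of a family whose members recognise the targets of ubiquitin ligases. It stood at 79.2 and 79.4 FPKM in the wild type and at 19.7 and 22.4 FPKM in the mutant, a ratio of 3.77. The 8 other hdEGs of the group were mixed, 3 called lower and 5 higher. An E3 ubiquitin-protein ligase SINAT3 (Zm00001eb017210) went against the direction of both members, at 2.56 on the log2 scale (limma standard error 0.11 and adjusted p = 6.368e-05).

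In hormone metabolism and signalling there was 1 member, Zm00001eb223580 (chromosome 5, 38192395 to 38193793), described as TIFY 11c, of the family that holds the JAZ repressors of jasmonate responses. Its values were 59.6 and 50.01 FPKM in the wild type and 17.4 and 12.3 FPKM in the mutant, a ratio of 3.69. Of the 6 other hdEGs in this group, 5 were called lower and 1 higher. The group was formed by keywords, and 2 hormone-related hdEGs called higher fell outside it. These are an indole-3-acetate beta-glucosyltransferase (Zm00001eb053690, log2 fold change 1.18) and a binding factor of abscisic acid response elements (Zm00001eb366900, 1.003). The largest falls were in enzymes that inactivate hormones, a gibberellin 2-oxidase (Zm00001eb282550, log2 fold change -5.05) and an abscisic acid 8'-hydroxylase (Zm00001eb176720, log2 fold change -4.81). Both were less abundant in the wild type than the members, at 35.1 and 45.2 FPKM. The ninth described member, Zm00001eb140210 (chromosome 3, 148022415 to 148023895), is called a plasma membrane associated protein. It fell from 323 and 307 FPKM to 13.3 and 13.6 FPKM, the largest ratio among the described members at 23.4.

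None of the 9 described members was a storage protein or a protease or amylase inhibitor, an outcome fixed by the level limits. The 8 hdEGs described as storage proteins had wild-type means of 1191 to 21272 FPKM. The 2 inhibitors among the hdEGs had means of 20.9 and 2087 FPKM. Starch enzymes and transporters were also absent among the described members. This was in part by construction, since the alpha-glucosidase and the aquaporin left out by name met the rule. Members without a description could belong to any of these classes. Some uncharacterized members carried terms of the study's annotation of the hdEGs. Zm00001eb326960 (chromosome 7, 173177152 to 173183517), Zm00001eb231700 (chromosome 5, 78772990 to 78778508) and Zm00001eb296350 (chromosome 6, 176815150 to 176818612) were placed in carbohydrate metabolism, the last of them in glycolysis and gluconeogenesis. The first was the third most abundant member, with 378 and 355 FPKM in the wild type and 117 and 107 FPKM in the mutant, and at 112 FPKM it had the highest mutant mean of all members. The second stood at 68.6 and 57.8 FPKM against 11.8 and 14.03 FPKM. The third stood at 62.1 and 69.1 FPKM against 19.5 and 19.3 FPKM. The ratios of these 3 were 3.26, 4.89 and 3.38. Zm00001eb144590 (chromosome 3, 171760793 to 171764842) was placed under nutrient reservoir activity, the term given to seed storage proteins, and stood at 62.5 and 66.5 FPKM in the wild type and 17.98 and 14.5 FPKM in the mutant. These 4 have no description of a protein, so nothing further can be said of what they do.

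The 5 deepest falls were in members without a described function, a class that holds all but 9 of the 72 members. Zm00001eb355410 stood at 310 and 422 FPKM in the wild type and at 0.260 and 0.0817 FPKM in the mutant, which came from 11064 and 13915 reads against 10 and 3. This was the largest ratio of all, 2142, with a counting interval of the ratio of reads, scaled to library size, from 1230 to 3953 (95%, Clopper-Pearson, counting error only). Zm00001eb136780, with a fitted length of 225 bases the shortest member, had 474 and 423 reads in the wild type, which made 74.0 and 71.4 FPKM. At this fitted length the mutant libraries held 1 read and 0 reads, so the ratio of 1004 rests on 1 read. Its counting interval ran from 176 to 38843. The length and the reads are the smallest possible, and the true ones can be multiples of them. Zm00001eb181260 was at 68.3 and 155 FPKM in the wild type and at 0.0689 and 0.397 FPKM in the mutant, a ratio of 480. Its wild-type libraries differed 2.27-fold, the widest spread of any member, yet even the lower one lay 172 times above the higher mutant library.

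Next came Zm00001eb041390 (chromosome 1, 217938373 to 217939792), an uncharacterized hdEG annotated as a precursor protein. It stood at 143 and 126 FPKM in the wild type and at 1.29 and 1.38 FPKM in *zmnac128 zmnac130*, a ratio of 100.8 with replicates close together in both genotypes. Zm00001eb104350 fell from 138 and 134 FPKM to 1.25 and 3.29 FPKM, a ratio of 59.9. These 5 members with a ratio above 50 were set apart from the rest, since the next was the plasma membrane associated protein at 23.4. Zm00001eb021050 followed with 153 and 122.6 FPKM against 7.27 and 7.20 FPKM, a ratio of 19.0. Zm00001eb329520 stood at 58.1 and 59.1 FPKM against 3.56 and 3.69 FPKM, a ratio of 16.2. Both had mutant libraries within a few percent of each other.

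The member of the highest wild-type level, Zm00001eb070780, combined a high level with a deep fall. It stood at 482 and 513 FPKM in the wild type and at 30.4 and 49.4 FPKM in the mutant, a ratio of 12.5. Zm00001eb353760 completed the 10 largest ratios, with 224 and 192 FPKM against 15.8 and 19.8 FPKM. The second most abundant member, Zm00001eb073400, fell less, from 344 and 400 FPKM to 93.3 and 127 FPKM, a ratio of 3.37. High level and deep fall therefore did not go together throughout.

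The remaining uncharacterized hdEGs among the members covered most of the range of levels. Zm00001eb052850 (chromosome 1, 266068542 to 266074479) stood at 78.3 and 101.5 FPKM in the wild type and at 6.62 and 9.09 FPKM in the mutant, a ratio of 11.5. Its replicates varied in both genotypes. Zm00001eb230820 (chromosome 5, 75070163 to 75072326) was among the abundant members, at 298 and 302 FPKM against 59.6 and 88.5 FPKM. Here the wild-type libraries were nearly equal and the mutant libraries were not, with a ratio of means of 4.05. Zm00001eb356920 stood at 294 and 257 FPKM against 83.5 and 99.7 FPKM, and its ratio of 3.004 was the smallest among the hdEG members. Zm00001eb010140 (chromosome 1, 32017266 to 32020137), annotated as a precursor protein, showed the least spread of this set, at 135 and 136 FPKM against 37.7 and 36.7 FPKM. Zm00001eb013660 (chromosome 1, 45767343 to 45775419), also a precursor protein, stood at 100.7 and 135 FPKM against 30.2 and 28.4 FPKM. Zm00001eb343820 (chromosome 8, 71727850 to 71729742) stood at 71.3 and 63.3 FPKM against 15.8 and 17.0 FPKM. These last 3 kept between 24.3% and 27.4% of their wild-type level, close to the median of the members.

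The 22 hdEG members and the 50 others fell by overlapping amounts. Their median ratios were 4.18 and 3.88, and their ranges 3.004 to 100.8 and 2.63 to 2142. A ratio of at least 10 was reached by 6 of the 22 hdEG members and by 7 of the 50 others, a larger share of the hdEG members. The hdEG members had the higher wild-type level, with a median of 126 FPKM against 82.8 FPKM. The study kept downregulated hdEGs only above 10 FPKM in the wild type of KN5585, so level entered their selection. The other 50 are known by their IDs only, and their functions are not analysed here.

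The limits of the rule cut through a continuous range of genes. Just inside the ratio limit lay Zm00001eb356920, Zm00001eb166180 and Zm00001eb110370, with smallest ratios of 2.575, 2.599 and 2.618. Just outside lay Zm00001eb091230 and Zm00001eb201800, both at 2.42, and Zm00001eb294900 at 2.39. At the lower level limit, Zm00001eb148730, Zm00001eb145020 and Zm00001eb260130 were inside with wild-type means of 50.01, 51.5 and 51.8 FPKM. Zm00001eb264710, Zm00001eb032970 and Zm00001eb336190 were outside with 48.8, 47.3 and 46.9 FPKM. At the upper limit, Zm00001eb070780, Zm00001eb073400 and Zm00001eb326960 were the members of highest level, at 498, 372 and 367 FPKM. Above it followed Zm00001eb218560, Zm00001eb176800 and Zm00001eb267000 with 519, 607 and 786 FPKM. Of these last, Zm00001eb267000 fell to 17.3 and 9.14 FPKM, so that genes with a fall as deep as that of many members lay just beyond the window.

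The spread between replicates was limited by the rule, which sets the smaller wild-type value against the larger mutant value, but not fixed by it. Between the wild-type libraries it was wider among the members than among genes of the same level. The larger wild-type value exceeded the smaller by a median of 1.10 times in the members and 1.05 times in all 1511 genes of the window. A difference of at least 1.5 times was found in 4 members, and in 0.993% of the window's genes. What lies behind the wider spread was not tested. The 4 members were Zm00001eb181260 (68.3 and 155 FPKM), Zm00001eb265890 (54.4 and 94.2 FPKM), Zm00001eb153120 (51.2 and 80.1 FPKM) and Zm00001eb265650 (44.8 and 67.5 FPKM), and in all of them wild-type library 2 was the higher. Over all members the direction was near even, with 40 of 72 higher in library 2. Between the mutant libraries the medians were nearly equal, at 1.12 times in the members and 1.11 times in the window. Where both mutant libraries were above 0, they differed most in Zm00001eb181260 and in Zm00001eb145020 (18.3 and 5.56 FPKM), the latter with wild-type values of 53.1 and 49.8 FPKM.

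**Figure D3:**
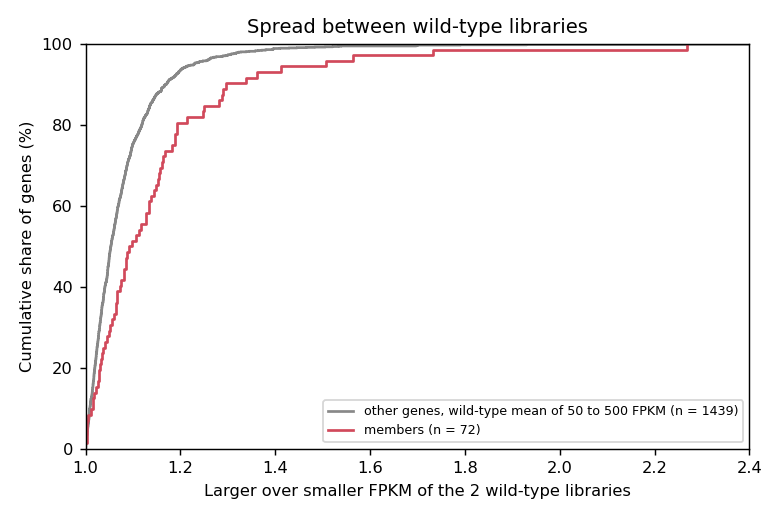
Cumulative share of genes, in percent, by the ratio of the larger to the smaller FPKM of the 2 wild-type libraries, for the 72 members (red) and the other genes with a wild-type mean of 50 to 500 FPKM (grey). The red curve lies to the right of the grey one, with medians of 1.10 for the members and 1.05 over all genes of the window, and its tail ends at 2.27.

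The members were not limited by read depth in the wild type. Each had between 336 and 22237 reads in wild-type library 1 and between 359 and 19258 in library 2, with medians of 3641 and 3655. In the mutant libraries the medians were 727 and 644 reads. Gene lengths read from the same steps of FPKM had a median of 1114 bases in the members (225 to 5265), 1317 bases over the window and 1869 bases over all genes tested. The median length of the members lay between the quartiles of the window, 897 and 1938 bases, and both members and window had shorter genes than the fit as a whole.

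Members were spread over the genome. The gene IDs number the genes along the chromosomes, and of 162 pairs of consecutive RefSeq-placed genes on 1 chromosome all were in the order of their positions, after 3 of 175 placed genes that fell on another chromosome than both neighbours had been set aside. By their neighbours in this order, 66 members could be put on a chromosome, and every one of the 10 chromosomes held between 3 (chromosome 7) and 10 (chromosome 1). Taken relative to the genes of the window, the share was between 3.61% (chromosome 7) and 8.77% (chromosome 9, 5 members). Among the 308 genes of the window that could not be placed it was 1.95% (6 members). The placed genes as a set thus held a higher share than the whole window. Within 10 IDs on either side of a member lay 677 tested genes that are not members. Of these 9.16% were called lower by limma, beside 7.18% of all genes tested, and 6.94% higher, beside 6.43%. Within 5 IDs the shares were 9.72% and 7.22%, and within 20 IDs 8.58% and 6.40%. For 34 of the members, no gene within 10 IDs was called lower. The same count was not taken for other genes, so it has no background to be read against.

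Some members nonetheless lay beside other genes that changed, and these places were singled out after their values had been seen. Zm00001eb265880 and Zm00001eb265890 are next to each other in ID order and were the only adjacent members. The first stood at 152 and 127 FPKM against 41.9 and 32.5 FPKM in the mutant, the second at 54.4 and 94.2 FPKM against 14.5 and 14.3 FPKM. The abundant Zm00001eb265850, 3 IDs away, fell as well, from 725 and 941 FPKM to 315 and 273 FPKM (log2 fold change -1.49, adjusted p = 0.0009879 in limma), while Zm00001eb265900 on the other side was not called (log2 fold change -0.14). Whether these neighbours are near-identical copies that share reads is not known from the tables, so their values are uncertain to that extent.

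Zm00001eb144590, the member under nutrient reservoir activity, had 4 genes called lower within 10 IDs, all at higher IDs, and 2 called higher, Zm00001eb144530 and Zm00001eb144550, at lower IDs. The lower calls were Zm00001eb144630, Zm00001eb144660, Zm00001eb144670 and Zm00001eb144680, with log2 fold changes of -1.999, -1.61, -1.17 and -1.18. Between them Zm00001eb144640 was not called (0.21), so the change did not run through the whole stretch. Zm00001eb144650, also between them, fell by less than the limit of 1 (-0.87, adjusted p = 0.001544 in limma) and was not called. Zm00001eb015380 (61.3 and 69.5 FPKM against 17.6 and 21.4 FPKM) followed directly on 3 weakly expressed genes that were all called lower, Zm00001eb015350, Zm00001eb015360 and Zm00001eb015370, with wild-type means of 9.57, 5.27 and 3.68 FPKM. Beyond it, Zm00001eb015400 was called higher (log2 fold change 2.502).

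A member and a gene of opposite change could also lie side by side. Zm00001eb136780, the member at 1 and 0 reads in the mutant, lay 6 IDs from Zm00001eb136720, described as a MYB transcription factor, which rose from 3.23 and 4.70 FPKM to 249 and 194 FPKM (log2 fold change 5.49, standard error 0.18, from limma). Of the genes between them, those that were tested were not called. Zm00001eb166550 (55.4 and 64.4 FPKM against 19.6 and 16.7 FPKM), with a fitted length of 5265 bases the longest member, lay 7 IDs from a 22 kDa alpha zein gene, Zm00001eb166620, that was called lower (log2 fold change -2.85). Between them Zm00001eb166580 was called higher, from 28.3 and 25.6 FPKM to 828 and 772 FPKM (log2 fold change 4.84).

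**Figure D4:**
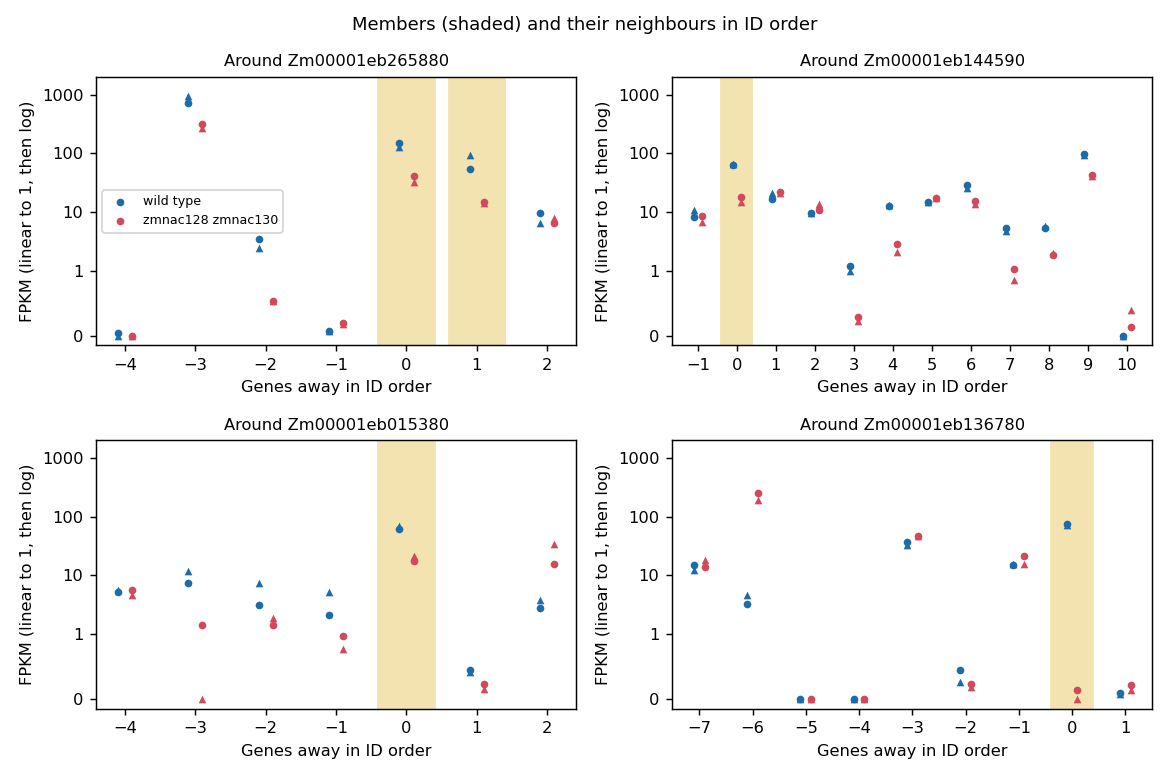
FPKM in each library (circles replicate 1, triangles replicate 2, wild type blue, *zmnac128 zmnac130* red, on an axis that is linear to 1 and logarithmic above) of members (shaded) and the genes next to them, placed by their distance in gene IDs from a member. The upper panels show Zm00001eb265880 with its adjacent member and Zm00001eb144590, the lower panels Zm00001eb015380 and Zm00001eb136780. Lower genes stand beside those not called or called higher, such as the MYB gene at 249 and 194 FPKM in the mutant, 6 IDs before Zm00001eb136780.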

How the data were processed

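RNA-seq of 16-DAP endosperm was analysed from tables of FPKM that the authors deposited for 44303 genes. Reads were aligned to the B73 genome (Zm-B73-REFERENCE-NAM-5.0) with HISAT2 per the labels. Which program made the FPKM is not stated, and the authors scaled each library to its own reads. Reads per gene and gene lengths were recovered from the steps of the FPKM values, and all 33589 genes above 0 came out whole within 0.002 reads. The fitted length is the smallest that gives whole reads and can be a divisor of the true one. In that case the recovered reads of the gene are too few by the same factor. The recovered totals were 26317317 to 30696032 reads in genes per library.

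Members were found by the rule given at the start. The members, the functional groups and the cell type markers were chosen with earlier results of these data known. Genes averaging 1 FPKM or more were compared on log2(FPKM + 1) with limma 3.58.1 (R 4.3.3, eBayes with trend, two-sided), and called at an absolute log2 fold change above 1 with a Benjamini-Hochberg adjusted p below 0.05 over all genes tested. The study calls its replicates independent samples but does not say whether they came from separate plants, so p-values measure only the spread between these libraries. Calls served for the background and for genes that are not members. The procedure was tested on simulated data. The other steps used Python 3.11.15.

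Members were named when described, when among the 10 largest ratios or the 5 highest levels, or when among the 3 nearest to a limit of the rule. In each functional group up to 3 called genes that are not members were named by size. Any other gene was singled out after its values had been seen. Alternatives were other scalings, limits, pseudocounts (0.1 and 10) and filters, a replicate block, limma voom on the recovered reads, and leaving out each library. Promoter motifs are not analysed here.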

Additional observations from a re-analysis of the deposited data

How the results depend on the processing

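The number of genes meeting the rule stayed within 1.5 times of 72 under every alternative tried. With TPM, whose values are higher at a given FPKM, 97 genes met it, 63 of them members. Leaving out each library gave 73 to 89 genes, and a smallest ratio of 2 or 3 gave 108 or 55. The median log2 ratio of the members, -1.99, was -1.91 with TPM and between -2.07 and -1.95 without each library in turn. Without the 20 most abundant genes in the total, the members' share of FPKM was 2.21% in place of 1.55% in the wild type and 0.418% in place of 0.332% in the mutant. Across all genes, the 1371 lower and 1227 higher calls became 307 and 305 with a pseudocount of 10, and 426 and 510 of 8396 genes with a filter at 10 FPKM. Leaving out each library gave 1054 to 1501 lower and 1034 to 1287 higher calls. The replicate numbers did not pair the samples (correlation of the deviations -0.08 over genes), and a replicate block gave 1381 lower and 1251 higher calls. With 2 libraries per genotype, the spread of a single member is poorly known.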
